A study of Saccharomyces cerevisiae with 78 samples.

Results

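The genes described here encode the proteins of the large ribosomal subunit of budding yeast, *Saccharomyces cerevisiae*. They are the symbols in the array's gene annotation that start with RPL and a digit, without *RPL2A*, *RPL2B*, *RPL22B*, *RPL30*, *RPL34A*, *RPL34B*, *RPL40A* and *RPL40B*. This gave 59 of the 67 RPL symbols and of the 982 gene symbols in all, and 57 of them have an exon feature, among 941 genes with one. *RPL14A* and *RPL26B* have no feature that the printing layout places in an exon and carry no exon value. A total of 45 genes have 18 or more spots on the array and are called intron-containing here, 44 of them with an exon value. The other 14 have fewer spots, 13 of them with an exon value, and *RPL26B* falls among these with 12 spots. By symbol 28 are A copies, 22 are B copies and 9 carry no copy letter, and both copies could be compared in 18 pairs.

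The samples are 78 hybridizations of RNA from 17 haploid strains against wild type, on spotted splicing-sensitive microarrays. In each strain the intron of 1 ribosomal protein gene (RPG) was removed precisely from its chromosomal locus, which leaves an intronless copy of that gene (Δi). The strains are *rpl16a*Δi, *rpl23a*Δi, *rpl24a*Δi, *rpl29*Δi, *rpl2a*Δi, *rpl2b*Δi, *rpl31a*Δi, *rpl34a*Δi, *rpl35a*Δi, *rpl40b*Δi, *rps14a*Δi, *rps14b*Δi, *rps21b*Δi, *rps23a*Δi, *rps8a*Δi, *rps9a*Δi and *rps9b*Δi. Mutant and wild type, which descend from 1 parent strain, were grown in parallel in rich medium with glucose. Each of the 39 replicates is a pair of arrays with the dyes exchanged, and 4 strains have 1 replicate, 4 have 2 and 9 have 3. Of the genes 6 (*RPL16A*, *RPL23A*, *RPL24A*, *RPL29*, *RPL31A* and *RPL35A*) are themselves intronless in 1 strain, and each was left out there, except in the average over strains and the F test, which hold all 17 strains.

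The large subunit holds the peptidyl transferase centre, where amino acids are joined, and the tunnel through which the new protein leaves. Most yeast RPGs exist as A and B copies that remain from an ancient genome duplication and encode nearly the same protein, and introns are far more common among RPGs than among other yeast genes. Transcription of RPGs follows growth through Rap1, Fhl1, Ifh1 and Sfp1, so that the mRNAs tend to rise and fall together.

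Each value is the log2 of mutant over wild-type signal, as normalized by the authors. It was averaged over the 6 spots of a feature and over both dyes, with missing values skipped. A gene with no value on 1 array of a pair therefore entered with 1 dye only. A value above 0 means more RNA in the mutant relative to the whole array. Array medians lay between -0.025 and 0.013. A ratio from a bulk culture does not tell a change in all cells from a change in part of them. The authors report that fold changes on these arrays are compressed compared with quantitative PCR. Sizes and folds given here may therefore be too small. The number of arrays sets the precision, and the median SD between replicates after limma's moderation was 0.15 for exon values. Probe sequences were not used here. Near-identical A and B copies may share signal, and values of single copies are uncertain to that extent. The deleted intron was the lowest feature of its own gene in 17 of 17 strains. *MFA2*, which encodes a-factor, a pheromone made by cells of mating type a only, lay between -4.65 and -3.04 in 23 replicates and between -0.19 and 0.73 in the other 16, so that mutant and wild type differed in it in part of the hybridizations.

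On these arrays, large subunit genes stayed close to the wild type in the intron deletion strains. Over 963 combinations of gene and strain the median exon value was 0.025, against -0.0007 over all 15979 combinations of gene and strain, and the median size of a value was 0.079 against 0.083. In 52 of 57 genes every strain mean lay within 0.5 of 0, and 8 values lay beyond. The median over the large subunit genes of a strain ranged from -0.013 in *rpl16a*Δi to 0.078 in *rpl31a*Δi and was above 0 in 13 of 17 strains. With limma and Benjamini-Hochberg adjustment over all genes of a strain, 7 values passed the threshold of 0.05 (0.727%), where all genes passed in 1.13% of the combinations. Of these, 4 were above 0, where the share over all genes was 0.620%, and 3 were below, where it was 0.507%. At an unadjusted p under 0.05 there were 99 values (10.3%), against 10.2% over all genes. The 7 calls fell on 6 genes and 4 strains, and 13 strains had none. Of these calls 4 fell on intron-containing genes.

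**Figure D1:**
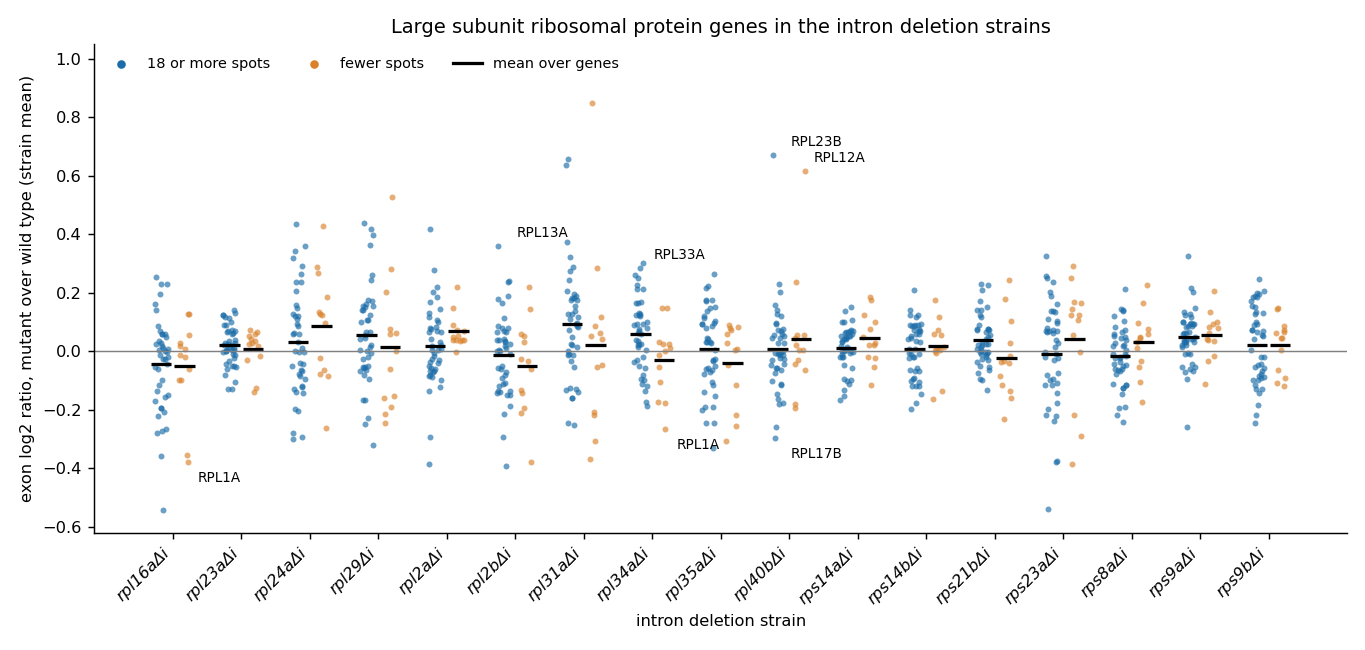
Exon log2 ratio of mutant over wild type (strain mean, vertical axis) for each large subunit gene in each of the 17 intron deletion strains, with intron-containing genes (18 or more spots) in blue, genes with fewer spots in orange and black bars at the mean over genes. The bars of both classes stay near 0 in every strain, and the genes named are the 7 calls by limma, of which *RPL23B* and *RPL12A* in *rpl40b*Δi lie highest at 0.67 and 0.62.

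*RPL1A* was lower in a pair of strains. It encodes the protein of the L1 stalk, the mobile arm of the large subunit beside the site where spent tRNA leaves. In *rpl16a*Δi its replicates were at -0.43 and -0.33, with a mean of -0.38 ± 0.07 (SD, n = 2, limma adjusted p = 0.0355). Both lay below all 37 replicates of the other strains, which ran from -0.32 over a median of -0.08 to 0.28. In *rpl34a*Δi the 3 replicates were at -0.32, -0.21 and -0.27, a mean of -0.26 ± 0.05 (SD, n = 3, limma adjusted p = 0.0349), and there they overlapped with the other strains, whose lowest replicate was at -0.43. All genes passed in 0.425% of tests in *rpl16a*Δi and in 2.34% in *rpl34a*Δi, and of the large subunit genes 1 of 56 and 2 of 57 did. Unadjusted, *RPL1A* passed in 7 of 17 strains, below 0 in all but *rpl29*Δi, where its single replicate was at 0.28. Neither call held once any 1 replicate of its strain was left out, with means from -0.43 to -0.33 in *rpl16a*Δi and from -0.29 to -0.24 in *rpl34a*Δi, nor with the first part of the array names as a block (limma adjusted p = 0.0867 and 0.104).

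*RPL13A* and *RPL33A* each rose in 1 strain. Both encode proteins of the large subunit that have no bacterial counterpart. The replicates of *RPL13A* in *rpl2b*Δi were at 0.37, 0.33 and 0.38, a mean of 0.36 ± 0.02 (SD, n = 3, limma adjusted p = 0.00889), in a strain where 1.70% of all genes and 1 of 57 large subunit genes passed. The replicates of the other 16 strains ran from -0.19 over 0.05 to 0.51 and overlap with these. In the same strain the other copy, *RPL13B*, was at 0.03 ± 0.11, and the intron feature of *RPL13A* was at -0.09 ± 0.18. *RPL33A* in *rpl34a*Δi was at 0.41, 0.24 and 0.20, a mean of 0.28 ± 0.11 (SD, n = 3, limma adjusted p = 0.0349). The highest replicate of the other strains was at 0.29, so that 1 replicate of *rpl34a*Δi stood above all of them and the other two lay within their range. *RPL33B* was at 0.12 ± 0.09 there and did not pass. As with *RPL1A*, no 1 replicate could be left out without losing either call, with means from 0.35 to 0.37 for *RPL13A* and from 0.22 to 0.33 for *RPL33A*. With the array names as a block *RPL13A* kept its call and *RPL33A* did not (limma adjusted p = 0.104). *MFA2* was low in all replicates of *rpl16a*Δi and *rpl2b*Δi and in 2 of 3 of *rpl34a*Δi. The junction feature of *RPL33A* in *rpl34a*Δi was at -0.24, -1.17 and 0.03 and did not pass (limma adjusted p = 0.107), and its intron feature was at 0.18 ± 0.10. With *MFA2* as a covariate the calls of *RPL1A* and *RPL13A* were lost (limma adjusted p = 0.281, 0.112 and 0.448) and that of *RPL33A* was kept. The covariate is no check apart from the array names. A strain had replicates in both *MFA2* ranges only where the start of its array names changed too. In *rpl16a*Δi and *rpl2b*Δi no replicate lay in the higher range. For calls lost there the fit cannot tell a smaller change from lower precision.

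The other calls fell in *rpl40b*Δi, where 11.2% of all genes passed and 3 of 57 large subunit genes did. *RPL23B*, a protein of the face that meets the small subunit, was at 0.18, 0.93 and 0.90 in the replicates, a mean of 0.67 ± 0.42 (SD, n = 3, 1.59-fold, limma adjusted p = 1.1e-05). *RPL12A*, which encodes a protein at the base of the stalk that binds translation factors, was at -0.18, 1.09 and 0.94, a mean of 0.62 ± 0.69 (SD, n = 3, 1.53-fold, limma adjusted p = 0.00241). Replicates 2 and 3 of both genes stood above every replicate of the other strains, the highest of which were at 0.26 for *RPL23B* and 0.33 for *RPL12A*, and replicate 1 of both lay within the range of the others. *RPL17B*, which encodes a protein lining the exit tunnel, was lower, at -0.40, -0.45 and -0.04 with a mean of -0.30 ± 0.22 (SD, n = 3, limma adjusted p = 0.00723). Replicates 1 and 2 lay below all 36 of the other strains, whose lowest was at -0.17, and replicate 3 lay inside. Replicate 2 of *RPL17B* was at -0.97 with the mutant in Cy3 and at 0.07 with it in Cy5. Over the 3 replicates the means by dye were -0.47 ± 0.45 (Cy3) and -0.13 ± 0.31 (Cy5). *RPL17A* was at -0.003 ± 0.037 and *RPL23A* at -0.18 ± 0.13 in this strain, and neither passed. Intron and junction features of these genes did not pass. The intron of *RPL23B* was at 0.41 ± 0.26 (SD, n = 3, limma adjusted p = 0.0873) and its junction at -0.07 (n = 2), and the intron of *RPL17B* was at 0.03 ± 0.07. *RPL23B* held its call without any 1 replicate (means 0.54 to 0.91). *RPL12A* lost it without replicate 2 (0.38, limma adjusted p = 0.156) or replicate 3 (0.45, limma adjusted p = 0.106), and *RPL17B* without replicate 1 (-0.25) or replicate 2 (-0.22).

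*RPL23B* and *RPL12A* are the 2 large subunit genes described here that lie on chromosome V, and in *rpl40b*Δi the genes of that chromosome moved together in part of the replicates. The median exon value of its 44 genes was -0.06 in replicate 1, 0.79 in replicate 2 and 0.63 in replicate 3. In replicates 2 and 3 respectively, 36 and 32 of these genes lay above 0.5, against 2 in replicate 1. The other 622 medians of a nuclear chromosome in a replicate, over all strains, lay between -0.17 and 0.16. Of 68 genes called up in *rpl40b*Δi, 30 lie on chromosome V, and of 37 called down none does. Less the median of its chromosome in each replicate, *RPL23B* was at 0.24, 0.14 and 0.27, a mean of 0.22 ± 0.07 (SD, n = 3) that passed (limma adjusted p = 0.0204). *RPL12A* was then at -0.12, 0.30 and 0.31, a mean of 0.17 ± 0.25 (SD, n = 3) that did not (limma adjusted p = 0.24). With replicate 1 alone *RPL23B* was at 0.18 (limma adjusted p = 0.373) and *RPL12A* at -0.18 (limma adjusted p = 0.513). *MFA2* was low in all 3 replicates. With it as a covariate the calls of *RPL12A* (0.45, limma adjusted p = 0.206) and *RPL17B* (-0.26, limma adjusted p = 0.204) were lost and that of *RPL23B* (0.67, limma adjusted p = 0.00227) was kept. Here too no replicate lay in the higher *MFA2* range, and the lost calls may mark lower precision only. The array names of replicate 1 start differently from those of replicates 2 and 3, so that within this strain the array names and the chromosome V values cannot be told apart. The 16 replicates of other strains with the same prefix as replicates 2 and 3 had chromosome V medians within the range given above.

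**Figure D2:**
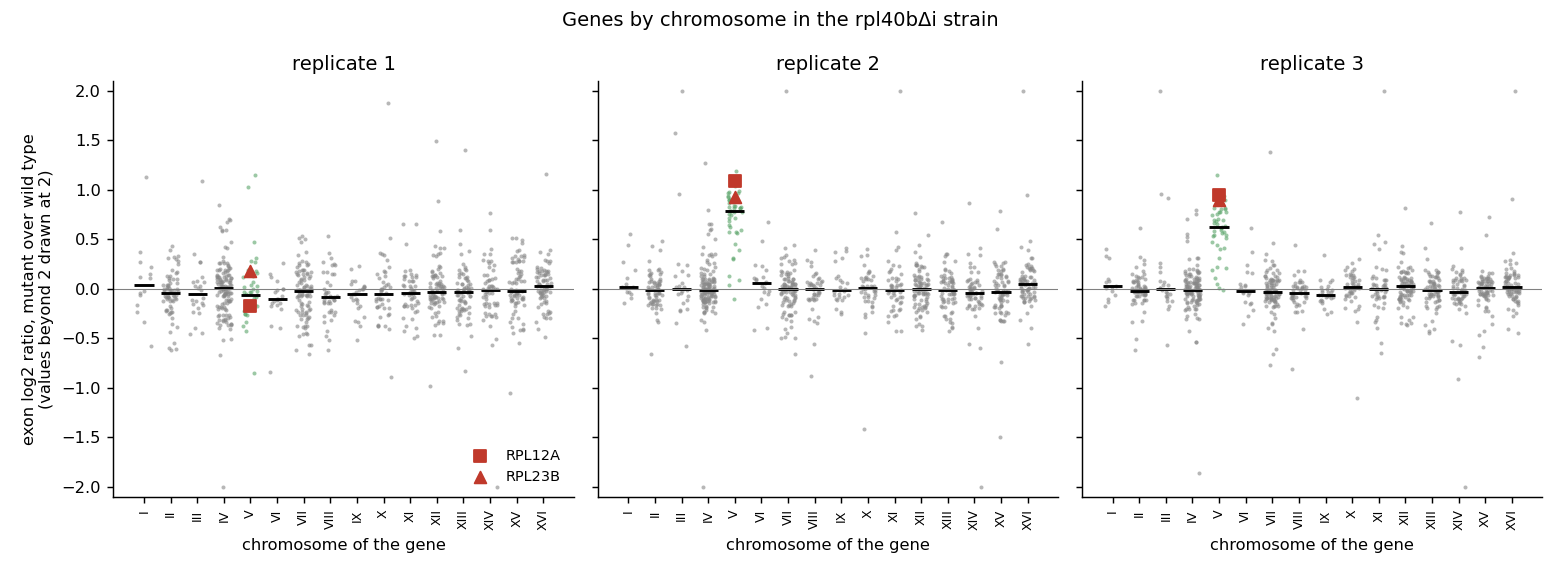
Exon log2 ratio of mutant over wild type for every gene by its chromosome, in the 3 replicates of *rpl40b*Δi, with black bars at the chromosome median, chromosome V in green and *RPL12A* and *RPL23B* in red. Chromosome V has a median of -0.06 in replicate 1, 0.79 in replicate 2 and 0.63 in replicate 3, and both red genes lie among its genes.

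*RPL23B* was also the only large subunit gene for which the 17 strains differed by limma's F test over strains (F = 4.91, limma adjusted p = 0.0227), out of 57 tested. Over all genes 1.30% passed that test. Unadjusted, 9 large subunit genes (15.8%) passed, against 16.7% of all genes. Without *rpl40b*Δi the F of *RPL23B* was 2.90 (limma adjusted p = 0.222), and without replicates 2 and 3 of that strain it was 3.01 (limma adjusted p = 0.138). Leaving out replicate 2 alone gave 3.31 and replicate 3 alone 3.26, and neither passed.

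Intron-containing genes and those with fewer spots lay close together on average. This comparison asks whether loss of 1 intron moved the mRNAs that are spliced apart from those that are not. The mean of the intron-containing genes minus that of the others was 0.0048 ± 0.046 (SD over 17 strains), from -0.06 in *rpl24a*Δi to 0.09 in *rpl34a*Δi, and was above 0 in 9 strains. Among replicates it was above 0 in 17 of 39. The strain with the highest difference had it in each replicate, at 0.12, 0.08 and 0.07. Of 742 values of intron-containing genes 3 were called up and 1 down, and of 221 values of the others 1 was called up and 2 down, with medians of 0.023 and 0.030. The sign moved with the arrays. In the 9 replicates whose array names start with the prefix called A here, the difference was above 0 in all 9, from 0.04 to 0.19, and it was above 0 in 3 of 9 with prefix B, in 4 of 18 with prefix C and in 1 of 2 with prefix D. With the mutant in Cy3 it was above 0 in 29 of 39 replicates (mean 0.040), and with the mutant in Cy5 in 10 of 39 (mean -0.028). Outside the ribosomal proteins, the same difference between 132 genes of 18 or more spots and 686 of fewer averaged -0.0057 over replicates and was above 0 in 17 of 39. With *MFA2* as a covariate the difference among large subunit genes was 0.037 and above 0 in 14 of 17 strains. With the prefix as a block it was 0.0067 and above 0 in 8 of 17. Within strains *MFA2* changed range only together with the prefix, so these fits are not separate checks.

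Splicing of these genes was read from the index, the intron value minus the exon value, which rises when unspliced RNA builds up. None of 742 index values of 44 large subunit genes passed with limma, while over all genes 0.753% did. Unadjusted, 61 passed (8.22%), 33 of them above 0, against 8.39% over all genes. The count moved with the fit, with 5 index calls where the array name prefix was a block and 13 where *MFA2* was a covariate. Shares over all genes under these fits are not given here, so neither count is read as particular to these genes. The lowest value was -0.75 for *RPL13A* in *rps23a*Δi and the highest 0.61 for *RPL13B* in *rpl29*Δi, both from 1 replicate. Strain medians ran from -0.21 in *rps23a*Δi to 0.20 in *rpl31a*Δi, and were above 0 in 7 strains. Index values are noisier than exon values, with a median SD of 0.23.

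A and B copies lay close together on average. Averaged over pairs, A minus B was 0.0073 ± 0.033 (SD over 17 strains), from -0.07 in *rpl24a*Δi to 0.04 in *rpl35a*Δi, and was above 0 in 12 strains and in 28 of 39 replicates. The sign moved with the arrays here too, above 0 in 8 of 9 replicates of prefix A, 2 of 9 of B, 16 of 18 of C and 2 of 2 of D, and in 22 of 39 with the mutant in Cy3 (mean -0.0084) against 30 of 39 in Cy5 (mean 0.030). With the prefix as a block it was 0.014 and above 0 in 15 of 17 strains. Single pairs stood further apart. Of 301 combinations of pair and strain 8 passed with limma (2.66%), 4 with the A copy lower and 4 with it higher, where 3.20% of all combinations of the array's 46 pairs passed. They fell on 6 pairs. With the prefix as a block 3 of the 8 remained, *RPL24* in *rpl16a*Δi (limma adjusted p = 0.0441) and *rpl2b*Δi (0.0371) and *RPL23* in *rpl40b*Δi (1.68e-05), and the other 5 had limma adjusted p from 0.0653 to 0.178. With *MFA2* as a covariate *RPL27* (limma adjusted p = 0.0466), *RPL21* (0.0438) and *RPL23* (1.54e-05) remained, and the others had limma adjusted p from 0.0501 to 0.181. For pairs too, the covariate is not a check apart from the prefix.

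*RPL24*, whose protein joins the subunit late in the cytoplasm and forms a bridge to the small subunit, had its A copy below its B copy in 3 strains. In *rpl16a*Δi the difference was -0.60 and -0.29 in the replicates, a mean of -0.45 ± 0.22 (SD, n = 2, limma adjusted p = 0.00644). In *rpl2b*Δi it was -0.48, -0.23 and -0.27, a mean of -0.33 ± 0.13 (SD, n = 3, limma adjusted p = 0.0186). In *rpl34a*Δi it was -0.26, -0.30 and -0.29, a mean of -0.28 ± 0.02 (SD, n = 3, limma adjusted p = 0.0272). All 8 replicates had *RPL24B* above *RPL24A*, while neither copy passed by itself in any of these strains. In *rpl16a*Δi, for instance, *RPL24A* was at -0.17 and -0.22 and *RPL24B* at 0.43 and 0.07. Over all 38 replicates, the A copy was higher in 11. The call in *rpl16a*Δi was lost without replicate 1 (-0.29), that in *rpl2b*Δi without replicate 1 (-0.25), and that in *rpl34a*Δi without any 1 replicate (-0.29 to -0.27).

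The copies farthest apart in any strain were those of *RPL23* in *rpl40b*Δi, at -0.48, -1.14 and -0.93, a mean of -0.85 ± 0.34 (SD, n = 3, limma adjusted p = 2.14e-07). All 3 replicates lay on the same side, and less the chromosome medians the mean was -0.37 (limma adjusted p = 0.0376). *RPL17* in the same strain was at 0.44, 0.41 and 0.03, a mean of 0.29 ± 0.23 (SD, n = 3, limma adjusted p = 0.0144), and was lost without replicate 1 (0.22) or replicate 2 (0.24). In replicate 2 *RPL17B* was below 0 with the mutant in Cy3 only, as given above. *RPL13* in *rpl2b*Δi was at 0.45, 0.29 and 0.24, a mean of 0.33 ± 0.11 (SD, n = 3, limma adjusted p = 0.0186), and was lost without replicate 1 (0.27) or replicate 2 (0.35). By dye of the mutant it was at -0.16 (Cy3) and 0.81 (Cy5), and the A copies were higher in every replicate of both pairs once the dyes were averaged. *RPL27* in *rpl34a*Δi was at 0.34, 0.34 and 0.18, a mean of 0.29 ± 0.09 (SD, n = 3, limma adjusted p = 0.0244), and *RPL27A* lay above *RPL27B* in 16 of 17 strains, though in only 25 of 39 replicates. *RPL21* in *rpl35a*Δi was at 0.63, 0.22 and 0.26, a mean of 0.37 ± 0.22 (SD, n = 3, limma adjusted p = 0.0414). The A copy was higher in each replicate of both, and the *RPL27* call was lost without replicate 1 or 2 (0.26 each) and the *RPL21* call without any 1 replicate (0.24 to 0.44).

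By mean size over strains the widest pairs were *RPL7* (0.22), *RPL37* (0.17), *RPL23* (0.17), *RPL21* (0.16) and *RPL43* (0.15). *RPL7*, which had no call, ran from -0.46 in *rpl24a*Δi to 0.27 in *rps14a*Δi. *RPL37* and *RPL43* encode zinc-binding proteins. *RPL37A* was above *RPL37B* in 12 of 17 strains and *RPL43A* above *RPL43B* in 11, with no call in either pair. Across replicates the 2 copies of a pair varied with a median correlation of 0.32 over the 18 pairs, against 0.030 over all 1596 pairs of large subunit genes. It was highest for *RPL16* (r = 0.74 over 35 replicates) and *RPL4* (r = 0.62 over 38), and lowest for *RPL7* (r = -0.36 over 39). The other copy was the most alike gene for 4 of 36 copies. Replicates share array name prefixes, dyes and any signal common to near-identical copies, and these correlations are given as a description.

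**Figure D3:**
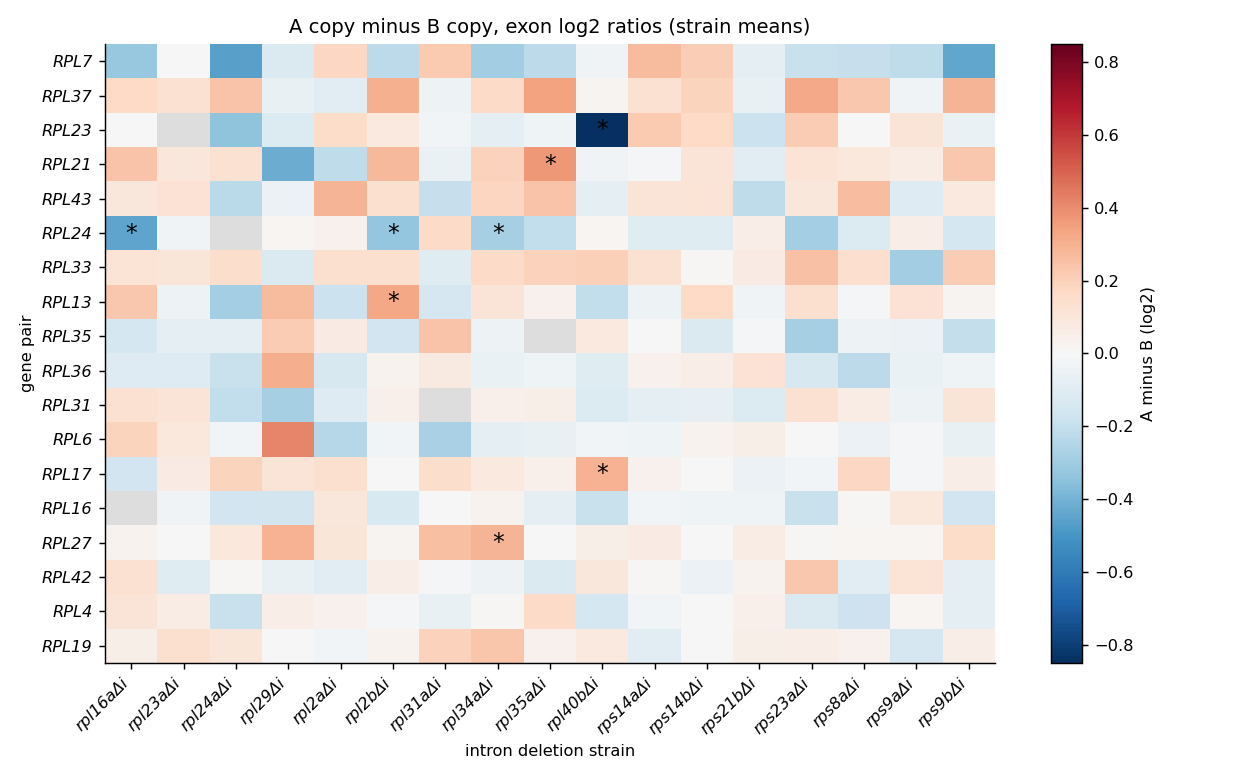
Exon log2 ratio of the A copy minus that of the B copy (colour) for 18 pairs of large subunit genes (rows) in 17 strains (columns), ordered by mean size, with stars at the 8 calls by limma and grey where a copy is the intronless gene of the strain. *RPL23* in *rpl40b*Δi stands out at -0.85, and 3 of the stars are on *RPL24* with the A copy lower.

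The other copy of the intronless gene could be followed in 5 strains, which asks whether a gene answers the loss of its partner's intron. *RPL16B* in *rpl16a*Δi was at 0.31 and 0.15, a mean of 0.23 ± 0.11 (SD, n = 2, limma adjusted p = 0.285). *RPL35B* in *rpl35a*Δi was at 0.41, 0.26 and 0.12, a mean of 0.26 ± 0.15 (SD, n = 3, limma adjusted p = 0.29). Both were above 0 in each replicate and neither passed, and *RPL16B* was at -0.13 with Cy3 as the dye of the mutant and at 0.59 with Cy5. *RPL23B* in *rpl23a*Δi was at 0.07, -0.06 and 0.07, a mean of 0.03 ± 0.08 (SD, n = 3, limma adjusted p = 0.99). *RPL24B* in *rpl24a*Δi was at -0.20 and *RPL31B* in *rpl31a*Δi at 0.18, with 1 replicate each and no call. The intronless gene itself was at 0.25 in *rpl16a*Δi, 0.22 in *rpl35a*Δi, 0.06 in *rpl23a*Δi, 0.21 in *rpl24a*Δi and -0.05 in *rpl31a*Δi, and its exon probes may share signal with those of the other copy.

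The range of strain means was widest for *RPL41A* (1.23), *RPL39* (1.20), *RPL29* (1.01), *RPL23B* (0.91) and *RPL12A* (0.77). The median range was 0.41 over large subunit genes and 0.46 over all genes. *RPL41A* encodes a very small protein at a bridge between the subunits, *RPL39* a small protein of the exit tunnel and *RPL29* a small protein that joins the subunit late. These 3 varied together, with r = 0.82 for *RPL39* and *RPL41A* over 39 replicates, and r = 0.81 and 0.75 for *RPL29* with each of them over 38. In *rpl31a*Δi, with 1 replicate, they were at 0.85, 0.66 and 0.64 in the order *RPL41A*, *RPL39* and *RPL29*. Replicate 1 of *rpl2a*Δi gave 0.58, 0.70 and 0.65 in that order, from 1.68, 1.70 and 1.17 when Cy3 marked the mutant and -0.52, -0.31 and 0.13 when Cy5 did, on arrays of prefixes B and C. Replicate 1 of *rpl16a*Δi gave -0.82, -0.91 and -0.57. In replicate 1 of *rpl35a*Δi they were at -1.06, -0.61 and -0.53. In these replicates all 3 were high or low together, in that of *rpl2a*Δi with 1 dye only for *RPL41A* and *RPL39*. They were also low together in *rps23a*Δi, with 1 replicate, at -0.39, -0.54 and -0.38 in the same order. Replicate 1 of *rpl2b*Δi gave -0.72, -0.69 and -0.36. There *RPL41A* and *RPL39* were at -1.85 and -1.83 with the mutant in Cy5, and at 0.42 and 0.45 with it in Cy3. In some other replicates the 3 were less alike, at 0.85, 0.52 and 0.12 in the same order in replicate 1 of *rpl40b*Δi. Replicate 1 of *rps8a*Δi gave -0.82, -0.24 and -0.61. None of the 3 was called in any strain. The other replicate of *rpl16a*Δi had *RPL41A* at 0.11 and *RPL39* at -0.17. Their spread moved with the array names. The SD over the replicates of prefix A was 0.72 for *RPL41A*, 0.47 for *RPL39* and 0.40 for *RPL29*, against 0.23, 0.17 and 0.13 for prefix C, and the part of this in their ranges was not tested. *RPL21B* (r = 0.82 with *RPL39*) and *RPL25* (r = 0.81 with *RPL41A*) varied with them. These correlations are across replicates that share array name prefixes and dyes.

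**Figure D4:**
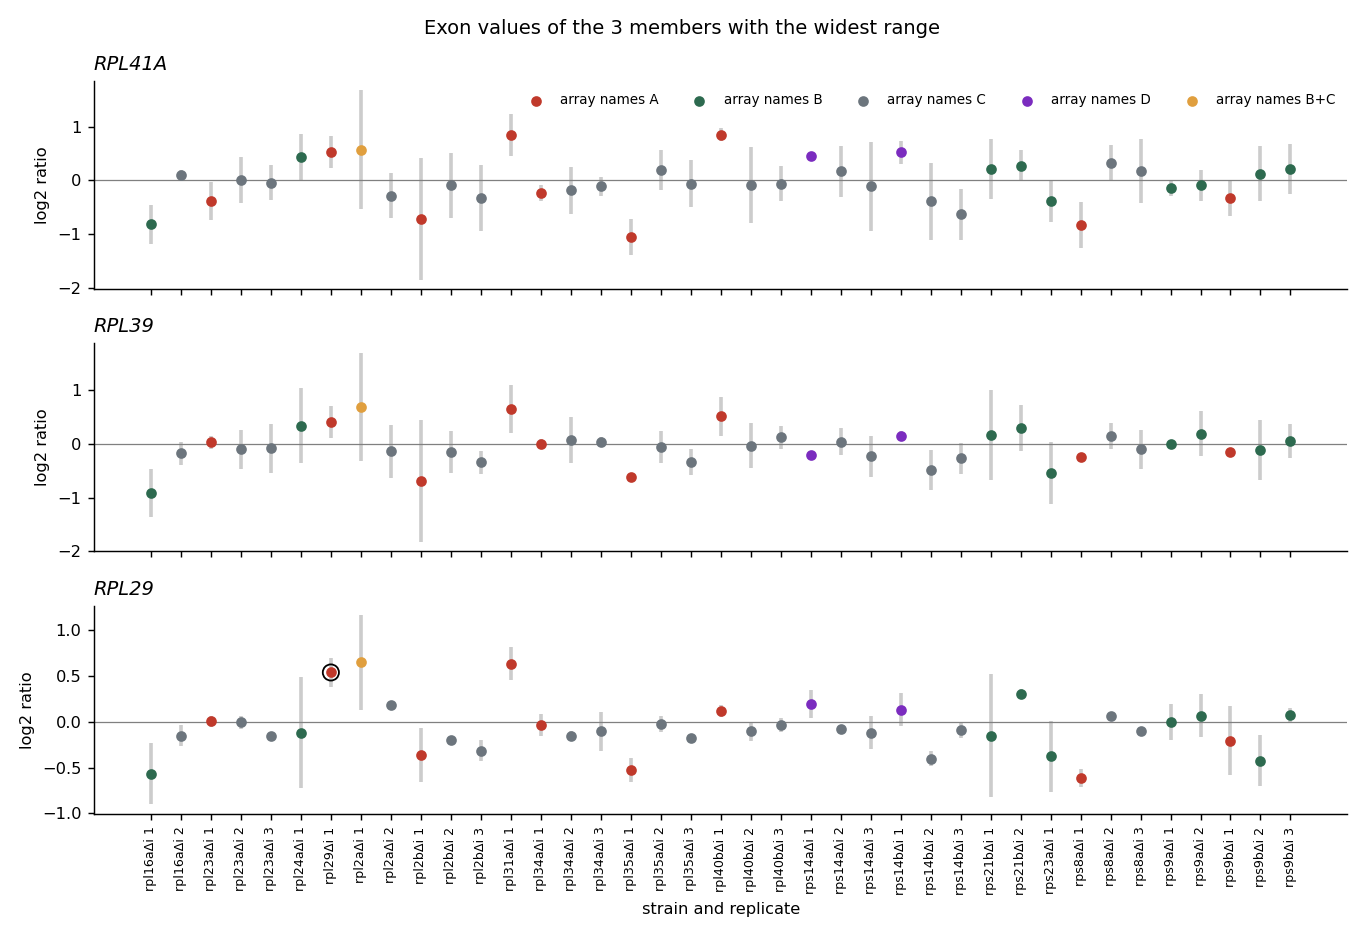
Exon log2 ratio of mutant over wild type for *RPL41A*, *RPL39* and *RPL29* in each of 39 replicates, coloured by the prefix of the array names, with grey lines from the value with the mutant in Cy3 to that with it in Cy5 and a ring at *RPL29* in its own intronless strain. The 3 genes are high together in *rpl31a*Δi (0.85, 0.66 and 0.64) and low together in replicate 1 of *rpl16a*Δi, and their spread is widest for prefix A.

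Averaged over all strains, 9 large subunit genes were above the wild type by limma (15.8% of 57, where 4.98% of all genes were) and 2 were below (3.51%, where 5.96% of all genes were). The median of this average was 0.025 over large subunit genes and 0.0016 over all genes. *RPL33A* was highest at 0.11 ± 0.02 (SE, 1.08-fold, limma adjusted p = 0.000986), above 0 in 17 of 17 strains and 36 of 39 replicates. *RPL17A* followed at 0.11 ± 0.02 (SE, limma adjusted p = 0.00299), *RPL20B* at 0.10 ± 0.02 (SE, limma adjusted p = 0.000986) and *RPL13A* at 0.09 ± 0.02 (SE, limma adjusted p = 0.0118). *RPL26A*, another exit tunnel protein, was at 0.11 ± 0.04 (SE) and did not pass (limma adjusted p = 0.0525). The other genes above were *RPL11A*, *RPL21A*, *RPL27A*, *RPL37A* and *RPL15A*, at 0.06 to 0.08, which are named here after their values were seen. These averages are small, and the change of *RPL33A* by 1.08-fold is the largest of the 57.

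Below the wild type were *RPL1A* (-0.07 ± 0.02, SE, limma adjusted p = 0.0221) and *RPL28* (-0.08 ± 0.02, SE, limma adjusted p = 0.0131), whose protein carries the known sites of cycloheximide resistance. *RPL1A* was below 0 in 10 of 17 strains and *RPL28* in 12. *RPL7A* was lowest at -0.08 ± 0.04 (SE) and was not called. The strain in which a gene is itself intronless is inside these averages for 6 genes. Left out for them, an alternative added after seeing the data, it gave *RPL31A* at -0.07 ± 0.02 (SE, limma adjusted p = 0.0714) and *RPL24A* at -0.07 ± 0.02 (SE, limma adjusted p = 0.0164), so that *RPL24A* passed and 3 genes were below, where with its own strain it was at -0.05 (limma adjusted p = 0.0654). The other 11 calls stayed. Neither *RPL1A* nor *RPL28* passed with the prefix as a block (-0.039 and -0.049, limma adjusted p = 0.457 and 0.333) or with *MFA2* as a covariate (-0.065 and -0.063, limma adjusted p = 0.576 and 0.596). The *MFA2* fit is not separate from the prefix, as given above. The average of *RPL1A* hardly moved in it, so its lost call does not show a smaller change. Of the 11 calls over all 17 strains 9 were A copies, 1 was a B copy and 1 has no copy letter, among 27 A copies, 21 B copies and 9 others tested. The A copies include *RPL1A*, which was below. *RPL1A*, *RPL11A* and *RPL15A* have no B copy among these genes, and *RPL20B* has no A copy. In matched pairs A minus B averaged 0.0073 over strains. Shares for A and B copies over all genes are not given here, so this count is not read as a trait of A copies.

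The dye mattered for these averages. Large subunit genes were higher with the mutant in Cy3 than in Cy5 by a median of 0.12 (from -0.60 to 0.82, above 0 in 36 of 57 genes), while the median over all genes was 0.0031. Of the 9 genes above the wild type 5 were below 0 with the mutant in Cy5 (*RPL33A*, *RPL20B*, *RPL21A*, *RPL37A* and *RPL15A*). For *RPL33A* the mean over replicates was 0.26 in Cy3 and -0.03 in Cy5. For *RPL13A* it was 0.07 and 0.13 and for *RPL17A* 0.21 and 0.02, so that these lay above 0 with either dye. All 9 were above 0 on average within each of the prefixes A, B and C, and 5 were below 0 in the 2 replicates of prefix D (*RPL17A*, *RPL20B*, *RPL13A*, *RPL11A* and *RPL21A*, from -0.10 to -0.022). Prefixes A, B and C hold most of the replicates by which the 9 were called, so their sign there is no separate support. With the prefix as a block, *RPL33A* (0.12, limma adjusted p = 0.0148) and *RPL27A* (0.10, limma adjusted p = 0.029) kept their calls among these genes, and with *MFA2* as a covariate *RPL27A* alone did (0.16, limma adjusted p = 0.04). The part of dye, array names and *MFA2* in the averages was not separated further.

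**Figure D5:**
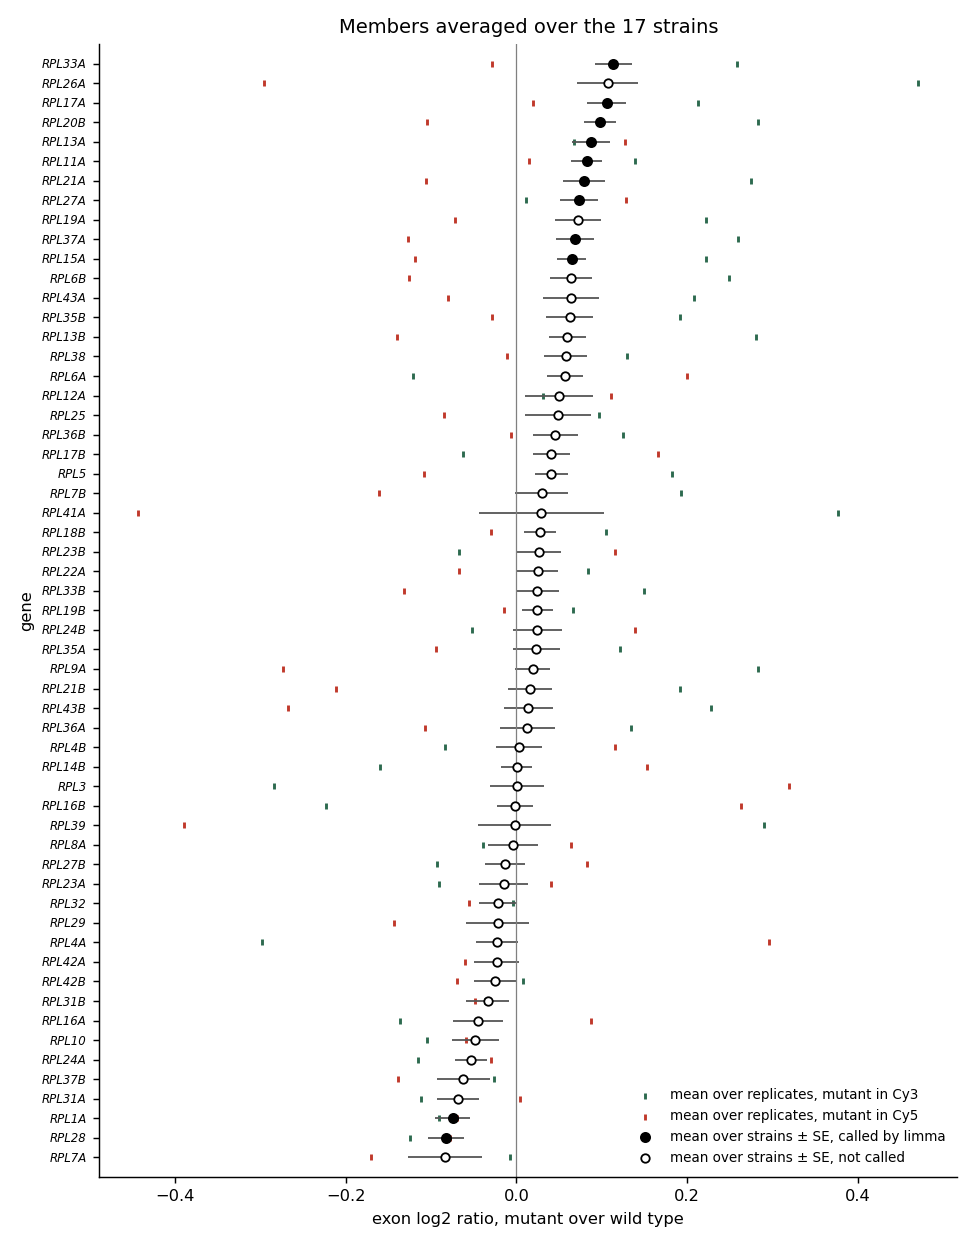
Average of the strain means over all 17 strains of each large subunit gene (circles, with SE from limma, filled where called) on the log2 scale, with green marks at the mean over replicates with the mutant in Cy3 and red marks with it in Cy5. *RPL33A* is highest at 0.11 and *RPL7A* lowest at -0.08. The green mark lies to the right of the red mark in 36 of 57 genes.

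Grouped by place in the ribosome, 4 of the 7 calls by strain fell in 3 of 6 groups, beside a share of 1.13% over all genes (0.620% up and 0.507% down). *RPL1A* is the only measured gene of the L1 stalk, and *RPL12A* that of the stalk base. Their calls, down in 2 of 17 strains (11.8%) and up in 1 of 17 (5.88%), are those given above. These shares describe single genes. The *RPL1A* calls were lost without any 1 replicate of the strain, and the *RPL12A* call once chromosome medians were subtracted. Of 219 exon values of 13 exit tunnel genes 1 was called, down (*RPL17B* in *rpl40b*Δi, 0.457%), with a median of 0.021. *RPL5* and *RPL11A*, whose proteins enter the subunit together with its smallest RNA, had no call in 34 values and a median of 0.061. The 5 genes listed for bridges to the small subunit (*RPL19A*, *RPL19B*, *RPL24A*, *RPL24B* and *RPL41A*, a list that does not hold *RPL23B*) had none in 84 values and a median of 0.0055. The 6 genes of proteins that join late (*RPL10*, *RPL24A*, *RPL24B*, *RPL29*, *RPL42A* and *RPL42B*) had none in 100 values and a median of -0.052. The median over all genes was -0.0007.

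Other genes of the pathway are read against the same 1.13% of all genes, and calls in *rpl40b*Δi against the 11.2% of all genes that passed there. The 5 stalk genes of the RPP family, which bind the base formed with *RPL12A*, had a median of 0.046 and 1 call in 84 values (1.19%), *RPP2B* in *rpl40b*Δi at 0.32 ± 0.24 (SD, n = 3, limma adjusted p = 0.00763). The 6 measured regulators of RPG transcription, of 8 listed (*ABF1*, *FHL1*, *HMO1*, *IFH1*, *RAP1* and *SFP1*) had no call in 102 values and a median of -0.013. Only 4 of 22 listed factors of assembly and export were measured, with 1 call in 68 values (1.47%), *NOG2* in *rpl40b*Δi at -0.41 ± 0.23 (SD, n = 3, limma adjusted p = 0.0032). The 52 small subunit genes, their strains' own intronless gene left out, had 3 calls up and 5 down in 877 values (0.912%) and a median of -0.015.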

How the data were processed

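Per the labels and methods, RNA of mutant and wild type was hybridized in dye-swapped pairs. The authors normalized the scans with the packages marray and limma (a custom Goulphar-type pipeline) and deposited log2 ratios per spot, already turned to mutant over wild type. How they treated background and poor spots could not be learned from the sources used here. Of 9216 spots, 83 to 3552 of an array (median 1187.5) had no value. All 59 symbols matched the yeast gene table. Intron, exon and junction features were read from the printing layout, for 4 of these genes by a part of the layout rule that no deleted intron tests.

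The 6 spots of a feature and both dyes were averaged, with missing values skipped. A mean per strain was fitted with limma 3.58.1 (lmFit and eBayes, R 4.3.3) over all genes with 22 residual degrees of freedom, tested against 0 and adjusted by Benjamini and Hochberg within each strain at 0.05. Index values, A minus B over 46 pairs, the mean over strains and an F test among strains (923 genes) were fitted likewise, and the fit was tested on simulated data. Strains with a single replicate borrow their spread from the rest. Whether replicates came from separate cultures is not stated, and p-values may reflect technical spread.

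The large subunit genes, lists and tests were chosen with earlier results of these data known. Genes named are those called, the other copies of intronless genes, the 5 highest and lowest by mean over strains, the 5 with the widest range, the 5 widest pairs and every called pair. Alternatives were centring, the median of spots, complete features, all spots, either dye, array name prefix or replicate number as a block, *MFA2* as a covariate, robust eBayes, leaving out strains or replicates and, chosen after seeing the data, subtracting chromosome medians, leaving out replicates 2 and 3 of *rpl40b*Δi, and leaving a gene's own intronless strain out of the mean over strains and the F test.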

Additional observations from a re-analysis of the deposited data

Results flagged for a closer look

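The exon value of *RPL23B* differed among the 17 strains by limma's F test (limma adjusted p = 0.0227). It did not pass that test without *rpl40b*Δi, without replicates 2 and 3 of that strain, or without either of them alone. The strain means of *RPL23B* ran from -0.24 in *rps23a*Δi to 0.67 in *rpl40b*Δi. In the latter, the genes of chromosome V, where *RPL23B* lies, had medians of 0.79 and 0.63 in replicates 2 and 3. In replicate 1 their median was -0.06.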

How the results depend on the processing

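Leaving out each of 35 replicates in turn gave 5 to 10 exon calls (7 with all), 0 to 3 index calls (0 with all), 6 to 9 pair calls (8 with all), 8 to 14 calls by mean over strains (11 with all) and 0 to 3 calls by F test (1 with all). The difference between intron-containing and other genes ran from 0.0007 to 0.0082 and A minus B from 0.0050 to 0.0095. In the other settings both moved by less than their SD over strains, from -0.034 to 0.041 and from -0.013 to 0.023.

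With the mutant in Cy3 only there were 53 exon, 11 index and 40 mean calls and 0 F calls, with 834 exon calls over all genes against 180 in all. With the mutant in Cy5 only there were 16, 6, 30 and 0, with 313 over all genes. Cy3 alone turned *RPL13* A minus B in *rpl2b*Δi to -0.16, *RPL16B* in *rpl16a*Δi to -0.13 and *RPL23B* in *rpl23a*Δi to -0.03. Cy5 alone turned the mean over strains of *RPL15A* to -0.13, *RPL20B* to -0.090, *RPL21A* to -0.10, *RPL33A* to -0.037 and *RPL37A* to -0.12. The causes were not tested. The median of spots gave 3 index calls, complete features gave 2 F calls, and all spots of a gene, which mixes introns and exons, gave 2 pair and 0 F calls. Array name prefix as a block gave 5 index, 4 pair, 4 mean and 3 F calls, and *MFA2* as a covariate 13 index, 4 pair and 2 mean calls. For the dye, spot, block and covariate settings, index, pair, mean and F calls over all genes are not given here. Replicate numbers did not pair strains (mean correlation of deviations 0.039, 0.033 and 0.082 for shared numbers 1, 2 and 3, against -0.019 for different numbers), and the replicate block gave 1 index call, 9 exon and 8 pair calls, 11 mean calls and 1 F call. Without *rpl40b*Δi there were 4 exon, 5 pair and 0 F calls. In the settings chosen after seeing the data, leaving out replicates 2 and 3 of *rpl40b*Δi gave 5 pair and 0 F calls and turned *RPL12A* there to -0.18, subtracting chromosome medians gave 5 exon calls, and leaving a gene's own intronless strain out gave 12 mean calls and 1 F call.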
